A study of Mus musculus with 115 samples.

Results

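The 9 genes described here carry the signal of insulin and insulin-like growth factors from the cell surface to growth control: the receptors Insr and Igf1r, the adaptors Irs1 and Irs2, the kinases Akt1 and Akt2, and Mtor with Rptor and Rictor. They were chosen by name, and each had 1 amplicon among the 23930 amplicons, 1 per gene symbol, of a targeted mouse transcriptome panel. All 9 passed the filter on low counts, as did 15403 genes in all. Counts were measured in 22 hearts of C57BL/6JEiJ mice from 110 AmpliSeq libraries, in which a short piece of each transcript is amplified and counted.

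Wild type mice, Ant1-/- mice and Ant1-/- mice that also carried the mitochondrial DNA change ND6 P25L were compared. Ant1 is another name of Slc25a4, the nucleotide carrier that brings ADP into heart and muscle mitochondria and ATP out, and ND6 is a mitochondrially encoded subunit of respiratory complex I. By the labels, every mouse had received 2.5e+11 vector genomes of an adeno-associated virus by pericardial injection. The virus was either AAV2/9Des-Gfp-mAnt1, called the Ant1 vector here, or AAV2/9Des-Gfp, called the control vector. By these labels no heart was free of virus or of the Gfp gene, which was not tested. Wild type hearts numbered 4 with the control vector and 3 with the Ant1 vector, Ant1-/- hearts (knockout) 3 and 4, and Ant1-/- ND6 P25L hearts (knockout ND6) 3 and 3. Another 2 knockout ND6 hearts, numbered 61 and 91, bore the control vector in the treatment label but the title code of the Ant1 vector, and formed a group of their own. RNA was taken 1, 3, 6, 9 and 12 months after injection, and the labels do not say which heart belongs to which time. Neither sex nor age is given in the labels, and what Des stands for in the vector names is not spelled out there.

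Insulin and insulin-like growth factors bind receptor tyrosine kinases, whose activation phosphorylates the Irs adaptors. These recruit phosphoinositide 3-kinase, which leads to activation of Akt. Akt in turn relieves the inhibition of mTOR complex 1, which drives protein synthesis and restrains autophagy, while mTOR complex 2 phosphorylates Akt itself. In the heart the pathway is known for its part in glucose uptake, in physiological growth and in the choice of fuel. Activity in this pathway is set largely by phosphorylation, which transcript counts do not measure.

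Library totals ran from 2893780 to 8531273 reads and the summed totals of hearts from 16827518 to 54779297. Values below are CPM, the usual scaling of read counts to a common library total, corrected by TMM factors between 0.959 and 1.06, and since each gene is read by 1 amplicon they are compared between hearts and not between genes. Slc25a4 lay at 8464.0 to 11380.4 CPM in the 7 wild type hearts and at 0.219 to 2.03 CPM in the 6 control vector hearts of both Ant1-null genotypes. With the Ant1 vector it stood at 174.3 to 241.4 CPM in knockout hearts and at 55.6 and 66.7 CPM in knockout ND6 hearts 37 and 5. In heart 8, labelled as having received the Ant1 vector, it was 0.732 CPM, and in hearts 61 and 91, labelled with the control vector, it was 169.1 and 151.3 CPM, so the level went against the treatment label in these 3 hearts. The fitted comparisons below leave hearts 61 and 91 out of both vector groups unless a setting says otherwise. Ratios of counts taken by vector count them by treatment label among the control vector hearts. Values without heart 8 are given for the calls in knockout ND6 hearts with the Ant1 vector, for the averaged calls and for the Akt1 to Akt2 ratio. The summed level of 8 cardiomyocyte markers lay between 73117.9 and 83008.2 CPM in the 15 Ant1-null hearts and between 73293.6 and 81819.4 CPM in the 7 wild type hearts.

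Averaged over vectors and genotypes, Mtor, Akt1, Insr and Igf1r were higher and Irs1 was lower in Ant1-null hearts. No member passed the threshold between vectors by edgeR's quasi-likelihood test, while DESeq2 called Igf1r and Irs1 between vectors in knockout hearts. With the control vector, Mtor was the 1 member of 9 called between knockout and wild type hearts (14.4% of all genes called, adjusted p below 0.05). Between knockout ND6 and wild type hearts 4 members were called, with Mtor, Akt1 and Insr higher and Irs1 lower (12.7% of all genes). With the Ant1 vector, Mtor, Akt1 and Igf1r were higher and Irs1 lower in knockout than in wild type hearts (9.89% of all genes). In knockout ND6 hearts that had received the Ant1 vector, Mtor, Akt1, Insr and Igf1r were higher than in wild type (19.5% of all genes). Averaged over both vectors and both Ant1-null genotypes, 5 of 9 members were called, 4 higher and 1 lower, where 30.1% of all genes were called. These comparisons share their wild type hearts within a vector, so they are not separate tests of the same change. In the main edgeR fit Akt2, Irs2, Rptor and Rictor were called in none of the 12 comparisons. Fitted on the compared groups only, edgeR called Irs2 between knockout ND6 and knockout hearts with the control vector (adjusted p = 0.0482). With the library table as a covariate, limma called Irs2 in 4 of the 12 comparisons and Rptor in 1. Without heart 8 the averaged log2 changes were 0.65 for Mtor, 0.47 for Akt1, 0.31 for Insr, 0.34 for Igf1r and -0.31 for Irs1, and all 5 stayed called (edgeR adjusted p between 9.81e-08 and 0.00295).

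**Figure D1:**
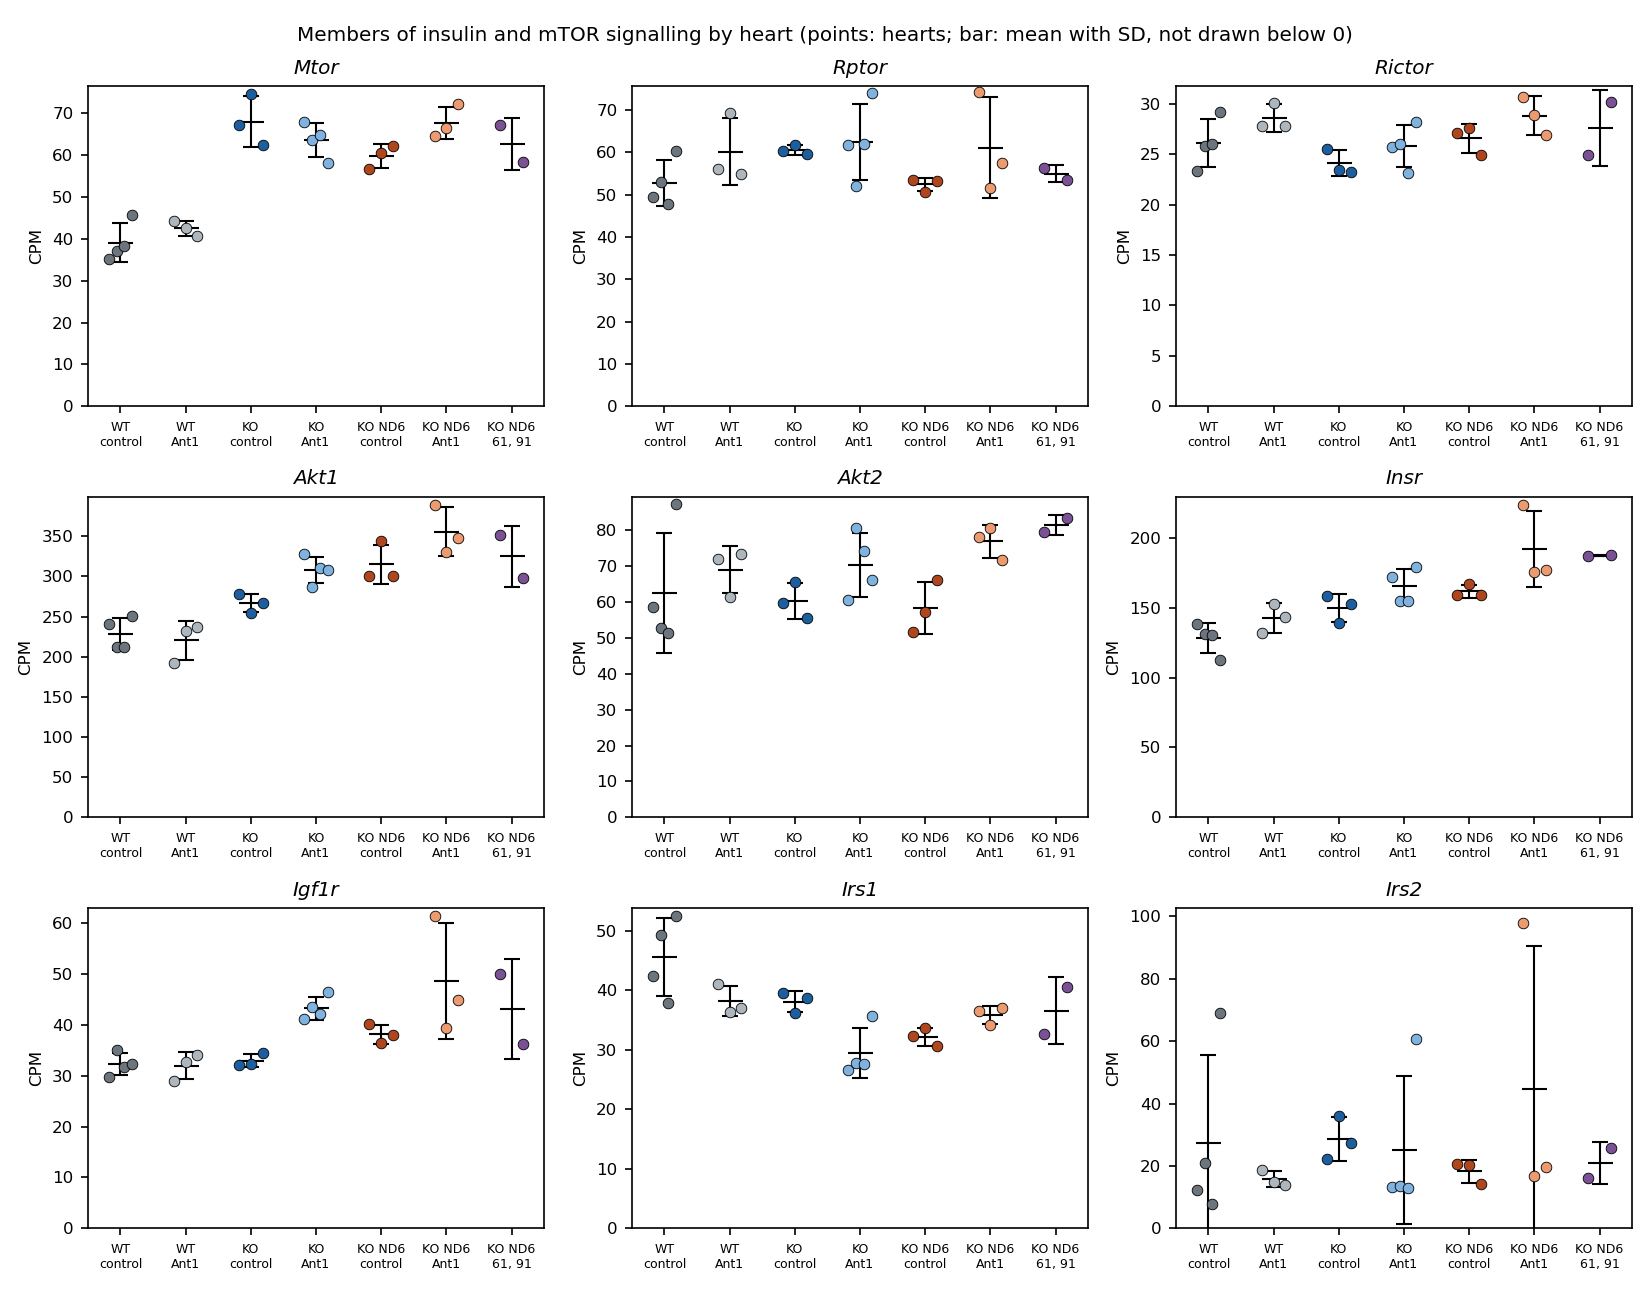
CPM of each member (vertical axis, from 0) in the 7 groups of hearts (horizontal axis), with 1 point per heart and the group mean with its SD as a bar. Mtor is above 56 CPM in every Ant1-null heart and below 46 CPM in every wild type heart, while Irs2 scatters from 7.88 to 97.7 CPM within and across groups.

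The promoters of the 4 members with the largest called changes over both vectors for which a RefSeq entry was found are shown first, because averaged over vectors and genotypes Mtor, Akt1 and Igf1r were higher while Irs1 was lower. Each is the 250 bases before the transcript start, 5′ to 3′ on the gene's own strand, from RefSeq on GRCm38.p6, and capitals mark a match to 1 of the 3 motifs searched. The Mtor window is chr4:148448332-148448581 on the plus strand, the Akt1 window is chr12:112674885-112675134 on the minus strand, the Igf1r window is chr7:67952007-67952256 on the plus strand and the Irs1 window is chr1:82291440-82291689 on the minus strand.
Mtor: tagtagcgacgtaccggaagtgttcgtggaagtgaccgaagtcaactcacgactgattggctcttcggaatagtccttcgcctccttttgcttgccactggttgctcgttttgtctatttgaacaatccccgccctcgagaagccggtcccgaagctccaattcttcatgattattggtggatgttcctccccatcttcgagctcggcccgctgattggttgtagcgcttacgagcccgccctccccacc
Akt1: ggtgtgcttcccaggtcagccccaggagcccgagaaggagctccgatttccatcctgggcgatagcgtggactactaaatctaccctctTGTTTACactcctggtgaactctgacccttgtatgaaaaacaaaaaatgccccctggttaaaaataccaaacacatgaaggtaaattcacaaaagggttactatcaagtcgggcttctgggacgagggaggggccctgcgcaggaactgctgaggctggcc
Igf1r: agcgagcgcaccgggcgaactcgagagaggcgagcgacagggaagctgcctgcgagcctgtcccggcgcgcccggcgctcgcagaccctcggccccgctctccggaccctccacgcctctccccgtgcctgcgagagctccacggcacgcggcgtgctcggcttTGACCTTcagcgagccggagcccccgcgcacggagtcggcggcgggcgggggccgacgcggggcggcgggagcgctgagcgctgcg
Irs1: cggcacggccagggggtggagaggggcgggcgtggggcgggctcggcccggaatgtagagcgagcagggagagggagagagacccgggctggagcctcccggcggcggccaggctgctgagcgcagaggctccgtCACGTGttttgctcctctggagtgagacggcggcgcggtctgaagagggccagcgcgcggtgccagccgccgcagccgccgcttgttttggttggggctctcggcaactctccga
The motifs were the FoxO core GTAAACA, the E-box CACGTG and the ERR core AAGGTCA, searched on both strands from 250 bases before to 50 bases after the start. A FoxO core stood 161 bases before the start shown for Akt1, 1 of 2 entries of that gene of which the other holds none, and 3.65% of 32851 promoters of that length hold one. An ERR core stood 86 bases before the start of Igf1r (4.72% of all promoters), and an E-box stood 115 bases before the start of Irs1 and 44 bases before that of Irs2 (7.15% of all promoters). None of the 3 motifs was found in the Mtor window. In all, 8 of the 9 members matched 12 promoter entries, and Insr matched none. No match overlapped another in the windows printed.

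Among the receptors, Insr, which binds insulin, was higher in Ant1-null hearts averaged over vectors and genotypes. Insr lies on chromosome 8 at 3122061 to 3279617 of mm10, on the minus strand, as does the targeted gene Slc25a4 at 46206797 to 46211284. With the control vector it stood at 138.4, 131.2, 130.4 and 112.8 CPM in wild type hearts 23, 24, 25 and 70, at 158.3, 138.8 and 152.8 CPM in knockout hearts 35, 36 and 38, and at 159.2, 167.3 and 159.0 CPM in knockout ND6 hearts 20, 21 and 22. With the Ant1 vector it stood at 131.6, 152.8 and 143.7 CPM in wild type hearts 80, 81 and 83, at 172.3, 155.1, 154.6 and 178.9 CPM in knockout hearts 20, 21, 22 and 27, and at 175.5, 177.3 and 223.7 CPM in knockout ND6 hearts 5, 8 and 37. Within each vector all Ant1-null hearts lay above all wild type hearts, and 14 of the 15 Ant1-null hearts, including 61 and 91 at 186.9 and 187.7 CPM, lay above the highest of the 7 wild type hearts. The log2 change in knockout ND6 hearts was 0.34 ± 0.09 (SE) with the control vector (adjusted p = 0.0206) and 0.43 ± 0.10 with the Ant1 vector (adjusted p = 0.00486). The first call was lost when knockout ND6 heart 20 (adjusted p = 0.0519), 21 (0.0903) or 22 (0.0558) or wild type heart 70 (0.0614) was left out. Without heart 8 the second was 0.48 ± 0.11 (adjusted p = 0.00576). In knockout hearts Insr missed the threshold, at 0.23 ± 0.09 with the control vector (adjusted p = 0.111) and 0.21 ± 0.09 with the Ant1 vector (adjusted p = 0.169). Knockout ND6 hearts differed from knockout hearts by 0.11 ± 0.10 with the control vector (edgeR adjusted p = 0.675). With the Ant1 vector they differed by 0.22 ± 0.09 (edgeR adjusted p = 0.244). Averaged over both vectors and genotypes the change from wild type was 0.30 ± 0.06 (adjusted p = 0.00053), a 1.23-fold level.

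Igf1r, the receptor of insulin-like growth factor 1, was higher in Ant1-null hearts that had received the Ant1 vector. It lies on chromosome 7 at 67952827 to 68233668 on the plus strand, and its promoter with the ERR core is printed above. Among control vector hearts it stood at 29.8, 35, 31.8 and 32.4 CPM in wild type hearts 23, 24, 25 and 70, at 32.1, 32.4 and 34.5 CPM in knockout hearts 35, 36 and 38, and at 40.2, 36.5 and 38 CPM in knockout ND6 hearts 20, 21 and 22. Among Ant1 vector hearts it stood at 29, 32.8 and 34.1 CPM in wild type hearts 80, 81 and 83, at 41.2, 43.5, 42.2 and 46.4 CPM in knockout hearts 20, 21, 22 and 27, and at 39.4, 45 and 61.4 CPM in knockout ND6 hearts 5, 8 and 37. Knockout hearts overlapped wild type with the control vector and lay wholly above wild type with the Ant1 vector. Knockout ND6 hearts lay wholly above wild type with either vector, and heart 37 was the highest of all 22. The log2 change with the Ant1 vector was 0.44 ± 0.12 in knockout hearts (adjusted p = 0.0264) and 0.61 ± 0.13 in knockout ND6 hearts (adjusted p = 0.00253; 0.66 ± 0.14 and 0.00437 without heart 8). The call in knockout hearts was lost without knockout heart 21 (adjusted p = 0.0508) or wild type heart 80 (0.127), 81 (0.065) or 83 (0.0526), and with the library table as a covariate. With the control vector the log2 change was 0.03 ± 0.12 in knockout hearts (95% interval -0.23 to 0.29, adjusted p = 0.894) and 0.25 ± 0.12 in knockout ND6 hearts (adjusted p = 0.195). The latter passed when hearts 61 and 91 joined the control vector group and when only libraries a and b were used, where its lowest adjusted p by edgeR was 0.0415. Averaged over vectors and genotypes it was 0.33 ± 0.08 (adjusted p = 0.00233).

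The ratio of Insr to Igf1r counts within a heart was close in both genotypes. The mean log2 ratio was 2.05 ± 0.16 (SD) in the 15 Ant1-null hearts and 2.06 ± 0.16 in the 7 wild type hearts, a difference of -0.01 (exact two-sided permutation test, p = 0.897, adjusted over 4 ratios 0.897). Taken by vector the difference was 0.14 among control vector hearts and -0.20 among Ant1 vector hearts (exact permutation test, adjusted p = 0.291 and 0.0444), with hearts 61 and 91 counted by their treatment label among the control vector hearts.

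Irs1, the adaptor that passes the receptor signal to phosphoinositide 3-kinase in muscle, was lower in Ant1-null hearts averaged over vectors and genotypes, but not in every comparison. It lies on chromosome 1 at 82233101 to 82291416 on the minus strand, where the predicted gene Gm9747 overlaps it on the other strand. Irs1 after the control vector stood at 42.4, 49.3, 37.9 and 52.5 CPM in wild type hearts 23, 24, 25 and 70, at 39.5, 36.2 and 38.7 CPM in knockout hearts 35, 36 and 38, and at 32.3, 33.7 and 30.6 CPM in knockout ND6 hearts 20, 21 and 22. Irs1 after the Ant1 vector stood at 41.1, 36.4 and 37 CPM in wild type hearts 80, 81 and 83, at 26.7, 27.8, 27.7 and 35.7 CPM in knockout hearts 20, 21, 22 and 27, and at 34.2, 37 and 36.6 CPM in knockout ND6 hearts 5, 8 and 37. Knockout ND6 hearts lay below all wild type hearts with the control vector but overlapped them with the Ant1 vector, and knockout hearts did the reverse. The log2 change was -0.50 ± 0.11 in knockout ND6 hearts with the control vector (adjusted p = 0.00533) and -0.37 ± 0.11 in knockout hearts with the Ant1 vector (adjusted p = 0.0391). The latter was lost without knockout heart 20 (adjusted p = 0.0989), 21 (0.0926) or 22 (0.089), without wild type heart 80 (0.157), 81 (0.0594) or 83 (0.0881), and under 3 other settings. In knockout hearts with the control vector the change was -0.26 ± 0.11 and missed the threshold (edgeR adjusted p = 0.13). So did knockout ND6 hearts with the Ant1 vector, at -0.09 ± 0.12 (edgeR adjusted p = 0.677). Wild type hearts with the Ant1 vector differed from those with the control vector by -0.26 ± 0.11 (edgeR adjusted p = 0.373). Averaged over vectors and genotypes Irs1 changed by -0.30 ± 0.07 on the log2 scale (adjusted p = 0.00199), which is 0.811 of the wild type level, and 10 of 15 Ant1-null hearts lay below the lowest wild type heart.

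Irs2, the adaptor best known for insulin action in liver and a transcript that insulin represses there through FoxO factors, varied more between hearts than between groups. It lies on chromosome 8, which also holds Slc25a4, at 10984681 to 11008458 on the minus strand. Among control vector hearts it stood at 12.2, 21, 7.88 and 69 CPM in wild type hearts 23, 24, 25 and 70, at 22.3, 36.1 and 27.2 CPM in knockout hearts 35, 36 and 38, and at 20.6, 20.3 and 14.1 CPM in knockout ND6 hearts 20, 21 and 22. Among Ant1 vector hearts it stood at 18.8, 14.7 and 13.9 CPM in wild type hearts 80, 81 and 83, at 13.2, 13.7, 12.9 and 60.7 CPM in knockout hearts 20, 21, 22 and 27, and at 16.7, 19.5 and 97.7 CPM in knockout ND6 hearts 5, 8 and 37. Hearts 70, 27 and 37 stood far above the other hearts of their groups, and the coefficient of variation over all 22 hearts was 84%, against 8.74% to 21.6% for the other 8 members. The log2 change averaged over vectors and genotypes was 0.42 ± 0.42 (95% interval -0.47 to 1.31, adjusted p = 0.485), an interval that holds changes in both directions. With the library table as a covariate, limma called it lower in knockout ND6 than in wild type hearts with the control vector (-1.33, adjusted p = 5.74e-07), where edgeR gave -0.59 ± 0.66 (adjusted p = 0.63).

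Repeat libraries of a heart gave close Irs2 values in most hearts. Over the other 20 hearts the median coefficient of variation between libraries of a heart was 11.2% for Irs2, against 9.26% from counting at the median library count. In hearts 27 and 37, each with 8 libraries in 2 tables of 8 barcodes, it was 41.7% and 25.3%. Heart 27 stood at 34.3 to 41.1 CPM in 1 table and at 70.8 to 101.0 CPM in the other, and heart 37 at 71 to 81.5 CPM and 110.8 to 131.9 CPM. Both tables put Irs2 in these hearts above the 13.7 CPM of the next knockout heart and the 19.5 CPM of the next knockout ND6 heart with the Ant1 vector. Mtor differed between the same tables, at 34.9 to 53.6 and 58.7 to 88.5 CPM in heart 27 and at 52.2 to 57.4 and 70.3 to 85 CPM in heart 37. The part of the table in the values of these 2 hearts was not tested.

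**Figure D2:**
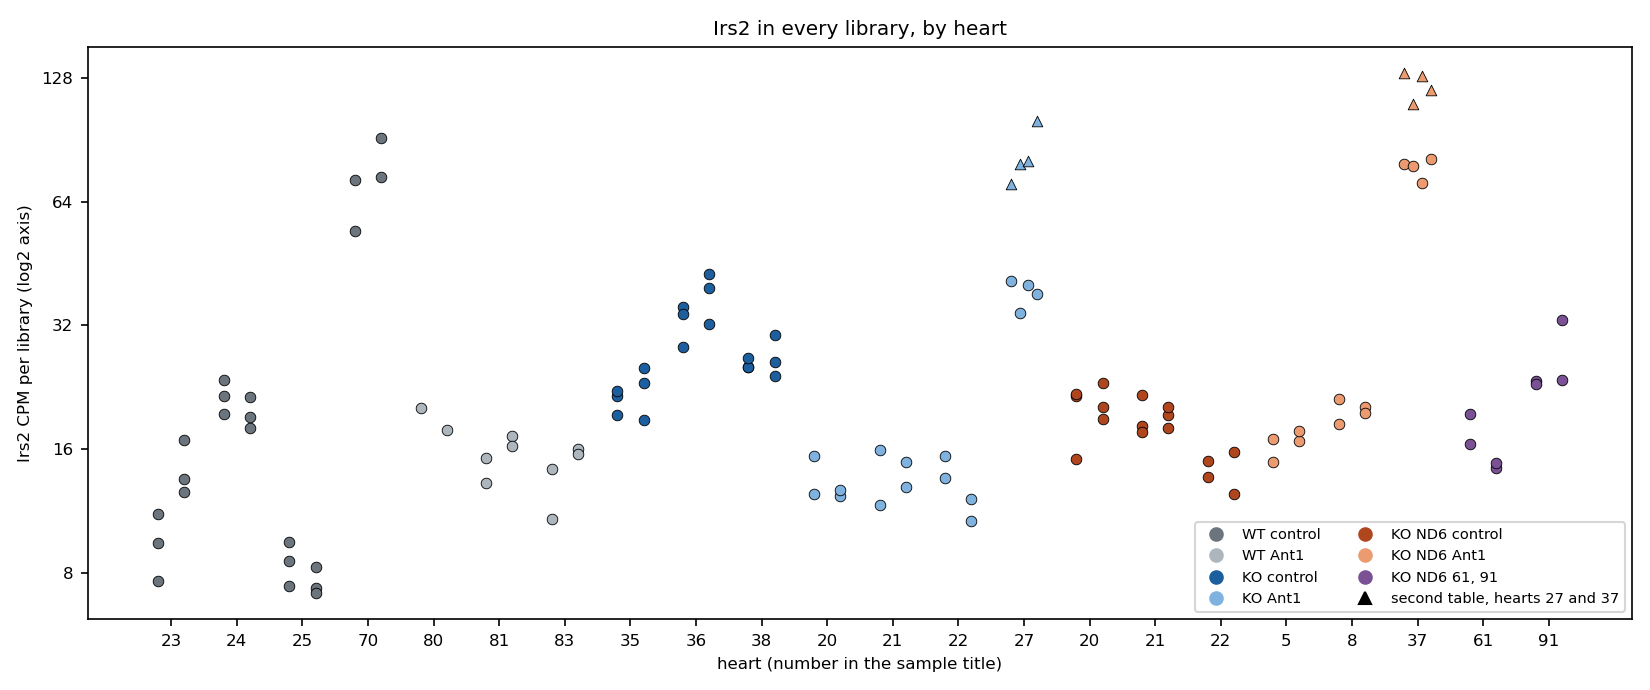
Irs2 CPM of each of the 110 libraries (vertical axis, log2 scale) by heart (horizontal axis, title numbers in group order), with colours for the groups and triangles for the second table of hearts 27 and 37. Hearts 70, 27 and 37 stand above their groups in every library, and heart 25 is the lowest at a summed 7.88 CPM.

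The ratio of Irs1 to Irs2 within a heart had a mean log2 value of 0.56 ± 0.74 in Ant1-null and 1.25 ± 0.82 in wild type hearts, a difference of -0.69 (exact two-sided permutation test, p = 0.0473, adjusted p = 0.0947). Without wild type heart 70 the difference was -0.96 (exact permutation test, adjusted p = 0.000147), so that 1 heart decides on which side of the threshold this ratio falls. Among Ant1 vector hearts alone it was -0.86 (exact permutation test, adjusted p = 0.0444).

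Akt1, the kinase isoform linked to cell growth and survival, was higher in every Ant1-null heart than in any wild type heart. It lies on chromosome 12 at 112653821 to 112674884 on the minus strand, and its upstream window with the FoxO core is printed above. With the control vector it stood at 240.4, 211.5, 212.4 and 250.6 CPM in wild type hearts 23, 24, 25 and 70, at 278.3, 255.0 and 267.0 CPM in knockout hearts 35, 36 and 38, and at 300.4, 343.6 and 300.8 CPM in knockout ND6 hearts 20, 21 and 22. With the Ant1 vector it stood at 192.0, 231.6 and 237.4 CPM in wild type hearts 80, 81 and 83, at 327.4, 287.4, 310.4 and 308.2 CPM in knockout hearts 20, 21, 22 and 27, and at 329.8, 347.9 and 389.0 CPM in knockout ND6 hearts 5, 8 and 37. Hearts 61 and 91 stood at 351.4 and 298.4 CPM, and the order of group means ran from wild type through knockout with the control vector to a set of 4 groups whose neighbours overlapped. The log2 change was 0.46 ± 0.09 in knockout ND6 hearts with the control vector (adjusted p = 0.00226), and with the Ant1 vector 0.48 ± 0.09 in knockout hearts (adjusted p = 0.00209) and 0.69 ± 0.10 in knockout ND6 hearts (adjusted p = 7.26e-05; 0.71 ± 0.11 and 0.000349 without heart 8). In knockout hearts with the control vector it was 0.22 ± 0.09, which missed the threshold (adjusted p = 0.114) although the groups did not overlap. Averaged over vectors and genotypes it was 0.46 ± 0.06 (adjusted p = 3.94e-06), a 1.38-fold level.

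Akt2, the isoform known for insulin-stimulated glucose uptake, ranged from 51.6 to 83.5 CPM in Ant1-null and from 51.3 to 87.2 CPM in wild type hearts, and the ranges overlapped. The averaged log2 change was 0.01 ± 0.09, with a 95% interval of -0.18 to 0.20 (adjusted p = 0.962). It lies on chromosome 7 at 27591552 to 27640826 on the plus strand. The ratio of Akt1 to Akt2 counts, which does not depend on library size, had a mean log2 value of 2.19 ± 0.23 in the 15 Ant1-null hearts and 1.80 ± 0.26 in the 7 wild type hearts. The difference of 0.39 passed the threshold (exact two-sided permutation test, p = 0.00244, adjusted p = 0.00976), and it was 0.42 without hearts 61 and 91 and 0.38 without heart 8. Within the control vector hearts, with 61 and 91 counted among them, it was 0.31 and did not pass (exact permutation test, adjusted p = 0.291). Within the Ant1 vector hearts it was 0.50 and passed (exact permutation test, adjusted p = 0.0444).

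Mtor, the kinase at the centre of both mTOR complexes, had the largest log2 change of the called members averaged over vectors and genotypes, and was called in all 5 comparisons of Ant1-null with wild type hearts. It lies on chromosome 4 at 148448611 to 148557683 on the plus strand, and Angptl7 lies within it on the other strand. Among control vector hearts it stood at 35.3, 37.2, 38.3 and 45.8 CPM in wild type hearts 23, 24, 25 and 70, at 67.1, 74.5 and 62.4 CPM in knockout hearts 35, 36 and 38, and at 56.7, 60.5 and 62.2 CPM in knockout ND6 hearts 20, 21 and 22. Among Ant1 vector hearts it stood at 44.3, 42.6 and 40.7 CPM in wild type hearts 80, 81 and 83, at 67.9, 63.6, 64.8 and 58.1 CPM in knockout hearts 20, 21, 22 and 27, and at 66.5, 72.1 and 64.6 CPM in knockout ND6 hearts 5, 8 and 37. All 15 Ant1-null hearts, with 61 and 91 at 67.1 and 58.4 CPM, lay above all 7 wild type hearts, and the Ant1-null groups overlapped their neighbours in rank. The log2 change with the control vector was 0.80 ± 0.09 in knockout hearts (adjusted p = 3.5e-06, 1.74-fold) and 0.61 ± 0.09 in knockout ND6 hearts (adjusted p = 0.000118, 1.53-fold). For hearts with the Ant1 vector it was 0.58 ± 0.09 in knockout hearts (adjusted p = 0.000344) and 0.67 ± 0.10 in knockout ND6 hearts (adjusted p = 8.21e-05; 0.63 ± 0.11 and 0.000729 without heart 8). Averaged over vectors and genotypes it was 0.67 ± 0.06 (adjusted p = 2.87e-08), a 1.59-fold level.

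Rptor and Rictor, the subunits that define mTOR complex 1 and mTOR complex 2, were not called with Mtor. Rptor, on chromosome 11 at 119602905 to 119899576, ranged from 50.6 to 74.3 CPM in Ant1-null and from 47.9 to 69.2 CPM in wild type hearts. Rictor, on chromosome 15 at 6708379 to 6800401, ranged from 23.1 to 30.7 CPM and from 23.3 to 30.1 CPM, and its coefficient of variation over all 22 hearts, 8.74%, was the smallest of the 9 members. Both ranges overlapped. The averaged log2 change was 0.07 ± 0.08 for Rptor (95% interval -0.09 to 0.23, adjusted p = 0.534) and -0.06 ± 0.06 for Rictor (95% interval -0.18 to 0.06, adjusted p = 0.486), so a change as large as that of Mtor lies outside both intervals. Their ratio differed by 0.11 between Ant1-null and wild type hearts on the log2 scale (exact two-sided permutation test, p = 0.188, adjusted p = 0.251).

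**Figure D3:**
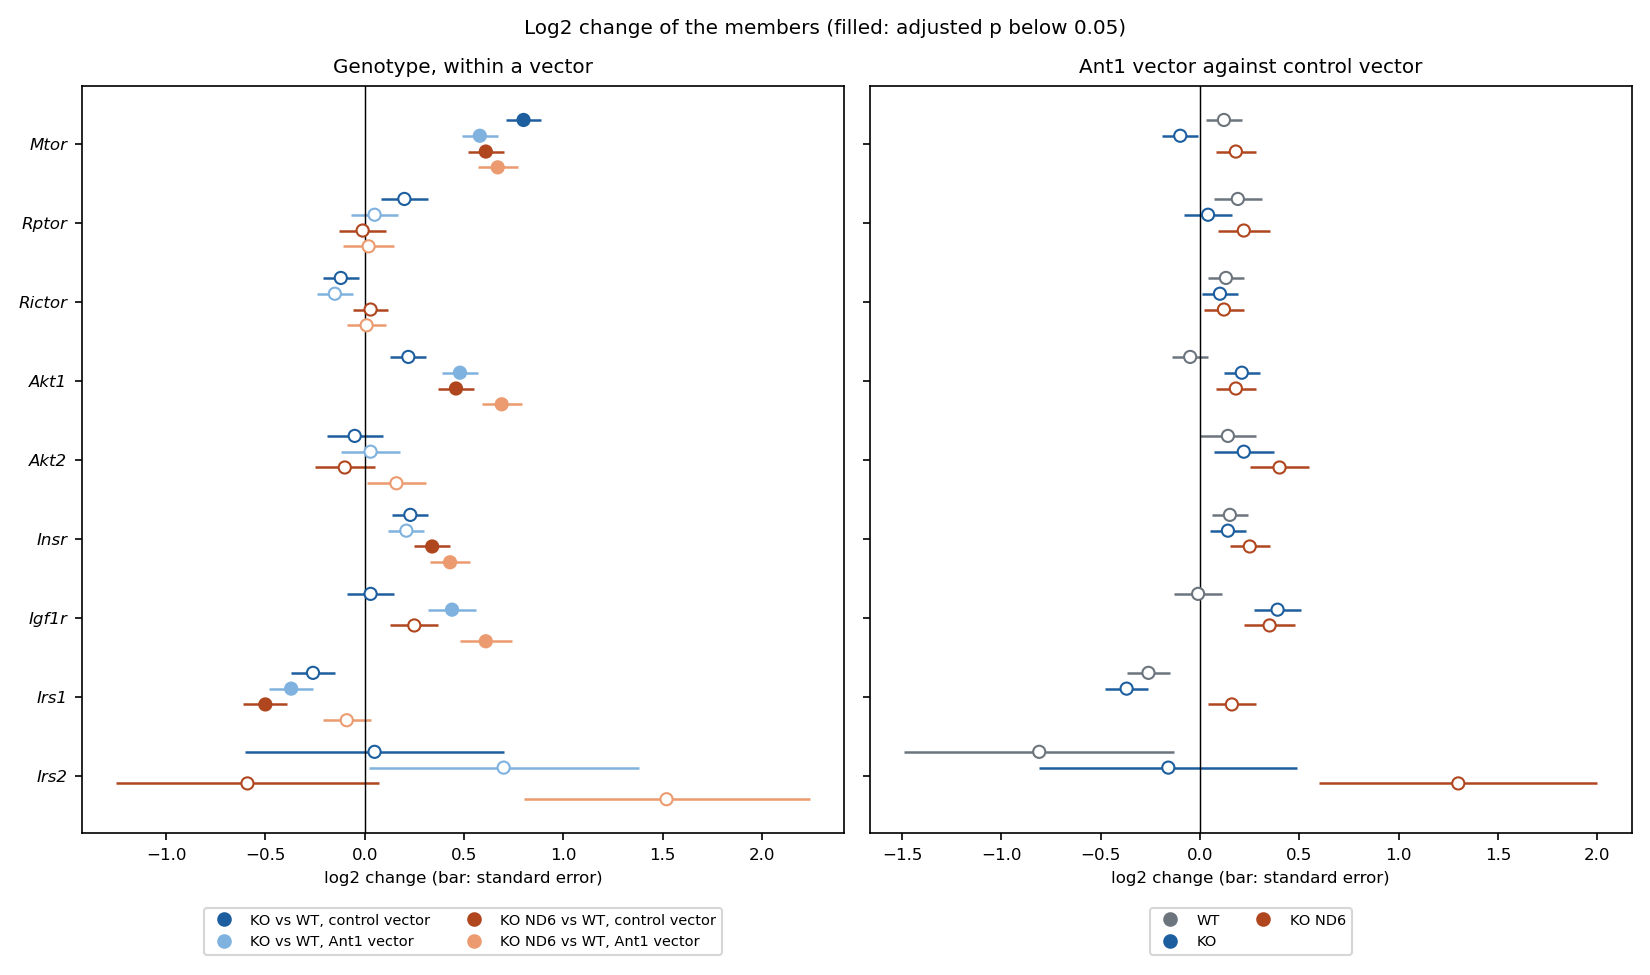
Log2 change of each member with its standard error, on the left for the 4 comparisons of an Ant1-null group with wild type within a vector, on the right for the Ant1 vector against the control vector in each genotype; filled points passed the adjusted p threshold of 0.05. Mtor is filled at 0.58 to 0.80 in all 4 genotype comparisons, and no point is filled on the right.

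The libraries of a comparison were spread unevenly over the 14 tables of 8 barcodes, so the changes were also taken within tables. Knockout heart 35 against wild type hearts 23, 24 and 25 differed by 0.84 for Mtor, 0.29 for Akt1, 0.22 for Insr and -0.03 for Igf1r on the log2 scale, all with the control vector in 3 shared tables. Knockout ND6 heart 22 against wild type heart 70 differed by 0.38 for Mtor, 0.19 for Akt1, 0.43 for Insr and -0.84 for Irs1 in 2 shared tables. With the Ant1 vector, knockout heart 20 against wild type hearts 80, 81 and 83 differed by 0.63 for Mtor, 0.49 for Akt1, 0.29 for Igf1r and -0.52 for Irs1 in 2 shared tables. Each of these contrasts rests on 1 Ant1-null heart, and the differences named for Mtor, Akt1, Insr and Irs1 have the sign of the change over all hearts. Knockout ND6 hearts with the Ant1 vector shared no table with wild type hearts, so for them no within-table value can be had.

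The vector contrasts asked whether transferring Ant1 changed the members. None of the 9 was called by the main edgeR fit in knockout (5.47% of all genes called), knockout ND6 (2.53%) or wild type hearts (0.117%). At an unadjusted p below 0.05 by its quasi-likelihood test stood 3, 3 and 1 members, and 3351, 3008 and 1795 of all 15403 genes. DESeq2 called 2 members in knockout hearts. In knockout hearts DESeq2 called 1434 genes in all, where edgeR called 842. Irs1 and Igf1r came closest in knockout hearts. Irs1 stood at 38.1 ± 1.73 CPM (SD, n = 3) with the control vector and at 29.5 ± 4.16 CPM (n = 4) with the Ant1 vector without overlap, a log2 difference of -0.37 ± 0.11 (adjusted p = 0.0541), and without heart 27 the difference was -0.47 ± 0.10 and passed (adjusted p = 0.0102). Igf1r stood at 33 ± 1.29 and 43.3 ± 2.26 CPM without overlap, a difference of 0.39 ± 0.12 (adjusted p = 0.0605), which DESeq2 called (adjusted p = 0.0306), as it did Irs1 (0.0251). Mtor differed by -0.10 ± 0.09 in knockout hearts (95% interval -0.29 to 0.10, adjusted p = 0.571) and by 0.18 ± 0.10 in knockout ND6 hearts (-0.03 to 0.39, adjusted p = 0.311; 0.13 ± 0.11 and 0.547 without heart 8), and the first interval does not hold a fall as large as the rise of 0.80 in control vector knockout hearts. Among the libraries kept in these groups no table held both vectors, so table and vector cannot be told apart in these values. The tables that mix vectors do so through libraries set aside for their labels: 80a and 80b, labelled with the control vector, beside Ant1 vector libraries, and hearts 61 and 91, with the title code of the Ant1 vector, beside control vector hearts 22 and 70.

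Adding the ND6 change to Ant1 loss moved no member past the threshold in the main edgeR fit, with the control vector (1.06% of all genes called) or with the Ant1 vector (1.66%). At an unadjusted p below 0.05 by that fit stood 1 and 3 members, and 2231 and 2534 of all 15403 genes. DESeq2 called none in either. With the library table as a covariate 6 members were called with the control vector and 3 with the Ant1 vector. Of all 15403 genes that fit called 1948 and 1820 in these contrasts. That fit takes libraries rather than hearts as its units, with a within-heart correlation of 0.176. It was run on simulated counts of knockout against wild type hearts with the control vector. Whether its p-values are too small in the contrasts given here was not tested. With the control vector Akt1 differed by 0.24 ± 0.10 (adjusted p = 0.252), Mtor by -0.19 ± 0.10 (0.391) and Irs1 by -0.24 ± 0.12 (0.354). Within 3 shared tables hearts 20 and 21 against hearts 36 and 38 differed by 0.35, -0.23 and -0.14 for these genes. Irs1 differed with the Ant1 vector by 0.28 ± 0.11 (adjusted p = 0.2; 0.26 ± 0.13 and 0.412 without heart 8), and by 0.39 ± 0.10 without knockout heart 27 (adjusted p = 0.0322). By edgeR the interactions of genotype and vector called no member, for knockout (0.5% of all genes called) or for knockout ND6 (0.273%), and DESeq2 called none. At an unadjusted p below 0.05 by edgeR stood 1 and 2 members, and 2259 and 1615 of all 15403 genes. For Igf1r the interaction was 0.40 ± 0.17 for knockout (edgeR adjusted p = 0.279) and 0.36 ± 0.18 for knockout ND6 (0.489). That its change with genotype differs between vectors was therefore not established by these tests.

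Of 168 other genes of the pathway in 9 lists, 151 were tested, and their counts are given here for Ant1-null against wild type hearts averaged over vectors, where 30.1% of all genes were called and the median log2 change of all genes was -0.02. Of these, 58 were called, and 54 of the 58 stayed called without heart 8.

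Among the insulin and IGF ligands and binding proteins, 1 of 12 tested genes was higher and 4 were lower, with a median log2 change of -0.21. Igf2, a growth factor ligand, fell from 36.2 ± 5.89 to 23.6 ± 3.18 CPM (-0.62, adjusted p = 4.12e-06), with no overlap between the 13 Ant1-null and 7 wild type hearts. Igf2r, which clears that ligand, changed by -0.21 (adjusted p = 0.00161) and Igfbp6, a binding protein that prefers it, by -0.42 (adjusted p = 0.00326). Igfals, the acid-labile subunit of the circulating IGF complex, rose from 1.23 ± 0.308 to 2.42 ± 0.609 CPM (adjusted p = 1.77e-05). Among receptor adaptors and brakes 1 of 17 was higher and 2 were lower (median -0.07), where the adaptors Grb2 and Gab1 changed by -0.25 (adjusted p = 0.000503) and -0.32 (0.00251) and Dok4 by 0.23 (0.00596).

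Between phosphoinositide 3-kinase and Akt, 5 of 20 tested genes were higher and 5 lower (median -0.00). Inppl1, a lipid phosphatase that removes the signal of phosphoinositide 3-kinase, rose by 0.22 (adjusted p = 0.0052), and Pik3cd, a catalytic subunit best known in leukocytes, by 0.34 (0.0076). Sgk1, a kinase related to Akt, differed between vectors in knockout ND6 hearts, where it was 184.0 ± 6.53 CPM with the Ant1 vector and 91.1 ± 13.5 CPM with the control vector (log2 change 1.01, adjusted p = 0.000517), and the interaction with genotype was called (1.58, adjusted p = 0.000814), with the same limit that table and vector cannot be told apart. Without heart 8 these were 0.99 (edgeR adjusted p = 0.00391) and 1.56 (0.00295).

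Partners of the mTOR complexes numbered 4 higher and 1 lower of 10 tested (median 0.10). Tti1 and Telo2, which help assemble mTOR and related kinases, rose by 0.52 (adjusted p = 3.66e-05) and 0.32 (0.00172), and Mapkap1, a subunit of mTOR complex 2, by 0.26 (0.00284). Tti2, the partner of Tti1, changed by -0.19 (adjusted p = 0.0126). In the list of TSC, Rheb and nutrient sensing 9 of 35 were higher and 4 lower (median 0.01). Lamtor1 and Lamtor3, which anchor mTOR complex 1 to lysosomes, rose by 0.35 (adjusted p = 2.8e-06) and 0.37 (1.57e-06) without overlap between Ant1-null and wild type hearts. Tsc2, an inhibitor of mTOR complex 1, rose from 169.0 ± 17.1 to 229.4 ± 34.4 CPM (0.43, adjusted p = 0.000903), and Fnip2, which acts with folliculin, by 0.66 (0.00074). In knockout ND6 hearts with the control vector Ddit4, a stress-induced inhibitor of the pathway, was 105.9 ± 25.5 CPM against 328.4 ± 117.2 CPM in wild type (-1.63, adjusted p = 0.0314).

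Of the mTOR complex 1 targets in translation and growth, 6 of 17 tested were higher and none lower (median 0.09). Eif4g1, the scaffold of translation initiation, rose from 341.2 ± 32.6 to 437.4 ± 72.0 CPM (0.34, adjusted p = 0.000341), Rps6kb2, an S6 kinase, by 0.35 (0.000318), Larp1, a binder of ribosomal protein transcripts, by 0.38 (0.00571), and Ulk1, which starts autophagy and is restrained by mTOR complex 1, by 0.26 (0.00751). These members hold both promoters of translation and an initiator of autophagy. Akt substrates and glucose handling had 2 higher and 2 lower of 13 (median -0.01), with Foxo1, a transcription factor that Akt keeps out of the nucleus, at -0.47 (adjusted p = 2.07e-06), the glucose transporters Slc2a1 at -0.45 (0.000298) and Slc2a4 at 0.18 (0.00612), and Gsk3b, a kinase inhibited by Akt, at 0.35 (6.36e-05). FoxO target genes had 3 higher and 3 lower of 15 (median 0.04), among them Bnip3, a mitophagy receptor, at -0.69 (adjusted p = 3.69e-06), and the muscle ubiquitin ligase Trim63 at 0.37 (0.00149). AMPK and LKB1 genes had 5 higher and 1 lower of 12 (median 0.09), led by Prkab1, a regulatory AMPK subunit, which rose from 42.2 ± 4.35 to 62.3 ± 8.29 CPM (0.58, adjusted p = 7.23e-07). The catalytic subunit Prkaa1 changed by -0.20 (adjusted p = 0.0157).

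**Figure D4:**
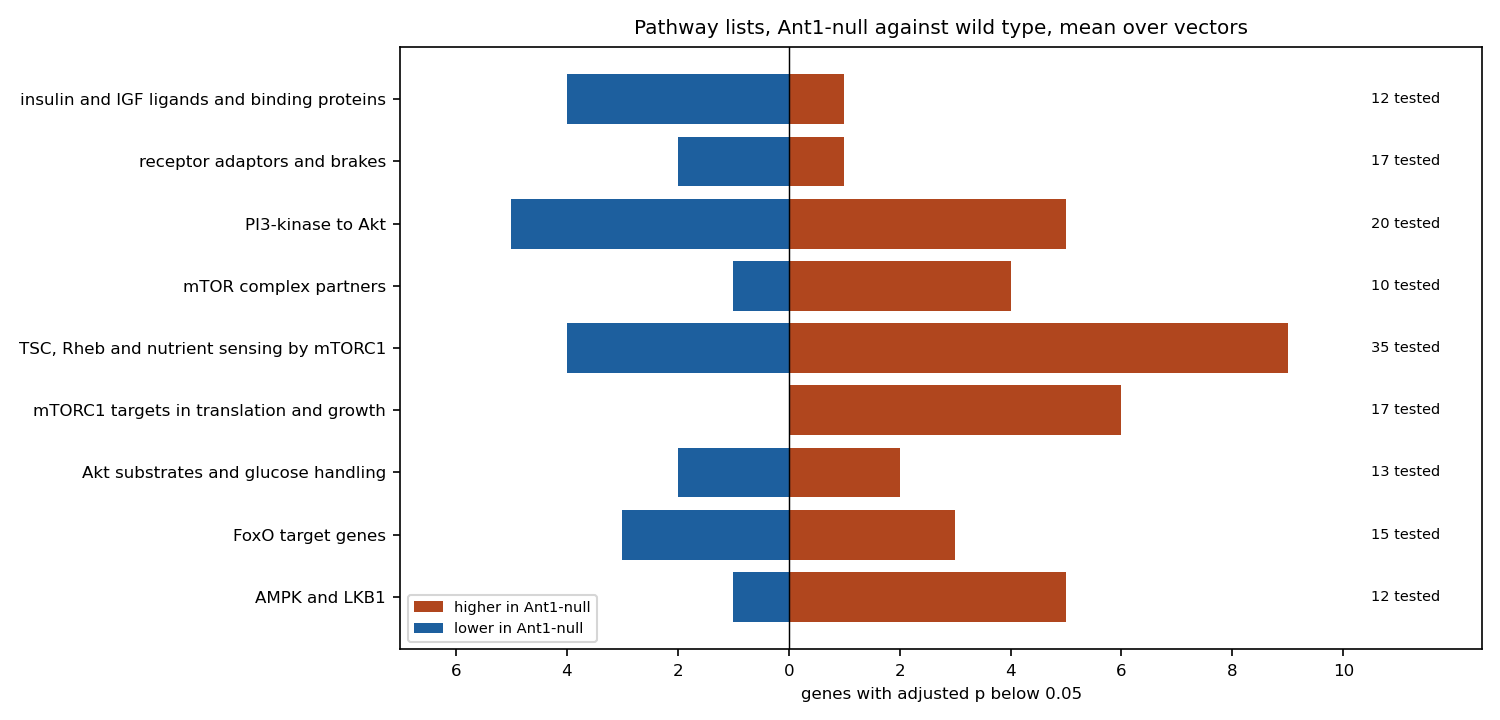
Number of genes higher (right) and lower (left) in Ant1-null than in wild type hearts at adjusted p below 0.05, for each of the 9 pathway lists, with the number tested at the right. The mTORC1 target list has 6 higher and 0 lower genes, and the list from phosphoinositide 3-kinase to Akt has 5 on each side.

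Markers of other cell types moved with genotype in part. Summed over 9 fibroblast markers the level was 1795.0 to 2463.9 CPM in Ant1-null and 2430.9 to 2824.0 CPM in wild type hearts. Over 8 macrophage markers it was 117.4 to 205.6 and 166.1 to 226.2 CPM, and over 8 endothelial markers 537.0 to 797.9 and 539.2 to 680.1 CPM. Over 5 pericyte and smooth muscle markers it was 830.1 to 1129.4 and 867.7 to 1136.0 CPM, over 7 adipocyte markers 652.7 to 1008.5 and 742.8 to 1235.2 CPM, and over 5 lymphocyte markers 8.16 to 32.6 and 7.91 to 11.7 CPM. Over 6 liver markers it was 10.4 to 26.2 and 16.5 to 324.2 CPM, and over 2 red blood cell markers 71.3 to 275.2 and 90.7 to 197.9 CPM. The skeletal muscle list of 7, which includes Acta1, an actin that stressed cardiomyocytes also express, was 1059.9 to 1848.1 CPM in Ant1-null and 577.1 to 717.8 CPM in wild type hearts. Every marker on these lists was above 3 counts in some heart. Fewer cells of a type and less RNA per cell cannot be told apart in whole heart, and the part of these markers in the changes of the members was not tested.

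Across the 22 hearts, Pearson's r of log2 CPM was 0.84 for Akt1 with Insr, 0.82 for Akt1 with Igf1r, 0.80 for Insr with Igf1r and 0.78 for Mtor with Akt1. After removing group means these were 0.43, 0.47, 0.48 and 0.14, so the likeness of Mtor to Akt1 lay mostly between groups. Mtor with Insr went from 0.63 to -0.61 and Akt2 with Insr from 0.25 to -0.55. Irs2 with Rptor was 0.65, and 0.77 after removing group means. The points share library depth and scaling, and these values are a description. Among 9618 genes with a mean of at least 5 CPM, the closest to Mtor were Nos1 (r = 0.95), Dhx37 and Acta1 (both 0.94), which fell to 0.44, 0.47 and 0.50 after removing group means. Closest to Akt1 was Lamtor1 (0.93), to Insr Akap1 and Nomo1 (both 0.93), to Igf1r Txlna and Sptan1 (both 0.91) and to Irs1 Slc44a2 and Rpgr (both 0.86). Akt2 was close to Adnp2 (0.92), and that value was 0.88 after removing group means. Irs2 was nearest to Cux2 and Irak2 (both 0.83), Rptor to Scmh1 (0.87) and Rictor to Fam129a (0.80).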

How the data were processed

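Ion AmpliSeq libraries from mouse heart, read on an Ion Torrent S5 per the labels' protocols, were deposited by the authors as tables of raw read counts per amplicon. The build is mm10 per the submitters' processing notes; the sources used here name no aligner or counter and do not say whether counting used strand. Libraries were summed per heart, reading the number, genotype and NI or IN code of the title as 1 heart. That is an interpretation, and nothing says that hearts came from separate animals, so p-values measure the spread between these hearts. In all, 22 hearts in 7 groups were fitted together with edgeR 4.0.16 (R 4.3.3; filterByExpr, TMM, quasi-likelihood F-test, residual df 15), and p-values were adjusted by Benjamini-Hochberg over 15403 genes, with a threshold of 0.05. The log2 CPM values used a prior count of 2. The averaged comparison sets the mean of 4 Ant1-null groups (13 hearts) against the mean of both wild type groups. The 4 ratios of counts were tested over 15 Ant1-null hearts; the plan gave 12, while the groups it names hold 15. Alternatives were DESeq2 1.42.0, median-ratio size factors, other filters and sets of hearts or libraries, and limma 3.58.1 with the library table as covariate (within-heart correlation 0.176). The fitting steps were tested on simulated data. The members and lists were chosen with earlier results of these data known. Named genes were the members, the called genes ranking lowest in adjusted p, up to 4 for each list and comparison, the 3 genes most like each member, and Slc25a4. Libraries a and b of heart 80, whose labels and titles disagree on the vector, and 3 samples of nuclei were not used in any comparison. Intervals cover the spread between hearts, and counting intervals were not drawn because reads carry no molecular identifiers. Some genes that this rule names are not reported here.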

Additional observations from a re-analysis of the deposited data

Results flagged for a closer look

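In knockout hearts with the Ant1 vector, heart 27 stood apart from hearts 20, 21 and 22 in both Irs adaptors, by Dixon's gap test for groups of 4. Irs1 was 35.7 CPM there, above 26.7, 27.8 and 27.7 CPM, and Irs2 was 60.7 CPM, above 13.2, 13.7 and 12.9 CPM. The test was run 18 times, and chance alone marks about 1 group in 20. Heart 27 has 8 libraries in 2 tables, which hold heart 37 besides it, and its Irs2 differed between these tables, at 34.3 to 41.1 CPM and 70.8 to 101.0 CPM. The part of the table in these values was not tested.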

How the results depend on the processing

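The Mtor and Akt1 calls against wild type, and all 5 calls averaged over vectors, held in every alternative that gave a value. The number of members called between knockout and wild type hearts with the control vector went from 1 to 2 without hearts 27 and 37. It went to 3 with the library table as covariate. Over all genes these settings called 3098 and 2916, against 2220 in the main fit. Between knockout ND6 and knockout control vector hearts the members called went from 0 to 1 (Irs2, edgeR adjusted p = 0.0482) when only the compared groups were fitted. With the table covariate they went to 6 for the control vector, to 3 for the Ant1 vector and to 1 for the knockout ND6 interaction. Over all genes the first setting called 842, and the covariate fit called 1948, 1820 and 219. Between vectors in knockout hearts the members called went from 0 to 1 without hearts 61 and 91 or with libraries a and b only. They went to 2 without hearts 27 and 37 or with DESeq2, all of them Igf1r or Irs1. Over all genes these settings called 727, 767, 1491 and 1434. With each heart left out in turn the counts ranged from 0 to 1 between vectors in knockout hearts, from 2 to 4 for knockout against wild type with the Ant1 vector and from 0 to 1 for knockout ND6 against knockout with the Ant1 vector. Over all genes these fits called 222 to 1050, 782 to 1642 and 83 to 774, against 842, 1524 and 255 with all hearts. The Akt1 to Akt2 difference of 0.39 was 0.31 among control vector hearts (with 61 and 91), and 0.33 to 0.43 with each heart left out. The Insr to Igf1r difference of -0.01 was -0.20 among Ant1 vector hearts, and -0.05 to 0.02 with each heart left out. The Irs1 to Irs2 difference of -0.69 was -0.86 among Ant1 vector hearts, and -0.96 to -0.52 with each heart left out. The causes were not tested. Of 1908 list counts recomputed, 1522 stayed within 1.5 times. No paired analysis was possible because the groups compared share no heart numbers: numbers 20, 21 and 22 recur only in knockout Ant1 vector and knockout ND6 control vector hearts, which were not compared. The vector contrasts could not be fitted with the table covariate, since no table holds both vectors among the libraries kept in the vector groups. Irs2 had between 31 and 827 reads a library, where counting alone gives a coefficient of variation of 9.26% at the median count.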

Other observations

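Libraries a and b of heart 80 entered no comparison because their labels and titles disagree on the vector. They held 41.2 and 44.3 CPM of Mtor, 194.9 and 188.2 CPM of Akt1, 133.5 and 127.5 CPM of Insr, 47.5 and 38 CPM of Irs1 and 16.9 and 16.1 CPM of Irs2.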
